A study of Mus musculus with 9 samples.

Results

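The genes described here are 32 genes of ER protein folding and of the unfolded protein response (UPR). The list was drawn up by name, with earlier results of these data known, and no threshold on a measured value enters it. A probe set counted for a gene when the annotation of the array gave it exactly 1 gene symbol, equal to the gene's name or an older synonym. All 32 genes had such a probe set, with 74 probe sets among them, of the 45101 on the array. For a gene to be tested, MAS5 had to detect a probe set of it on every array of 1 of the days, and the brightest such probe set then stood for the gene. All 32 passed this filter, with 65 probe sets, beside 11796 genes tested in all. Ero1l appears on the array under its current symbol Ero1a.

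RNA was measured in stromal vascular fractions (SVFs), which are the stromal, vascular and blood cells of fat without its adipocytes, on Affymetrix 3' expression arrays. The SVFs came from inguinal fat of wild-type Balb/c mice aged 10 weeks. The groups were 3 mice on day 0, which is taken here as the nonprimed state, and 3 mice on day 1 and 3 mice on day 3 after surgery on this fat pad. The labels name injury and priming, whereas the methods describe priming as mincing of the fat together with ligation of its feeding artery. The methods call SVFs of sham-operated mice nonprimed, but whether the mice of day 0 were operated on is not stated, and no sham-operated mouse was analysed here on days 1 or 3. All groups were digested with collagenase and dispase before RNA extraction, and each array held the mixed cells of 1 mouse.

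The ER folds secreted and membrane proteins with chaperones such as BiP, lectins that read sugar chains, and enzymes that form disulfide bonds. When unfolded proteins build up, the sensors IRE1, PERK and ATF6 are released from BiP. IRE1 splices the Xbp1 transcript, ATF6 is cut into a transcription factor, and PERK slows translation while favouring that of ATF4. Together these factors raise the transcripts of chaperones, of the degradation machinery (ERAD) and of amino acid enzymes, and a 3' array reads transcript levels but neither splicing nor cleavage.

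Short promoter elements through which these factors act are known, and their places in the members are shown first because the members below are grouped partly by them. Promoters of 300 bases, from 250 bases before to 50 bases after a gene's start, were taken from RefSeq on GRCm38.p6 and matched for 29 members. Those of Atf6, Hyou1 and Manf were not matched. The ER stress response element (ERSE), read by ATF6 and XBP1, was searched as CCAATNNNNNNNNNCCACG on both strands. It matched 7 of the 29 member promoters and 39 of all 32851 promoters (0.119%). Each window below gives the match in capitals, with its spacer, and 20 bases on either side, on the strand on which the match reads. The windows are chr2:34772005-34772063 (+) for Hspa5, chr8:84847055-84847113 (+) for Calr, chr11:50325780-50325838 (-) for Canx, chr15:88819500-88819558 (-) for Creld2, chr14:118937807-118937865 (+) for Dnajc3, chr12:17266471-17266529 (+) for Pdia6 and chr10:86705513-86705571 (+) for Hsp90b1, whose promoter held a further match on the other strand.
Hspa5: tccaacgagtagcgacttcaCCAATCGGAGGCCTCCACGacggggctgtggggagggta
Calr: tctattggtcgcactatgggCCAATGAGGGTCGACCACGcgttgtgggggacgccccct
Canx: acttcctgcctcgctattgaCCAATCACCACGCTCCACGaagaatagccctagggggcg
Creld2: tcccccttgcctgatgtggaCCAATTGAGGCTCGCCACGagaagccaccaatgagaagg
Dnajc3: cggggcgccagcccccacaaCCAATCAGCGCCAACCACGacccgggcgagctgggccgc
Pdia6: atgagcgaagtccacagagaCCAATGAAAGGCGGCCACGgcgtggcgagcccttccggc
Hsp90b1: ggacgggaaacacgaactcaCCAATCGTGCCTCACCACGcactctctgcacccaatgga

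A more compact form, ERSE-II, was searched as ATTGGNCCACG on both strands and matched 2 member promoters and 12 of all promoters (0.0365%). Both matches are shown in capitals, at chr16:22857832-22857882 (+) for Dnajb11 and chr8:94386357-94386407 (+) for Herpud1.
Dnajb11: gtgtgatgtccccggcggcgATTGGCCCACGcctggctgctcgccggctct
Herpud1: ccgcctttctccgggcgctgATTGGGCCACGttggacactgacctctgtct

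The element bound by ATF4 together with C/EBP partners, called CARE, was searched as TGATGNAAN on both strands. It matched 4 member promoters, those of Asns, Chac1, Herpud1 and Trib3, and 1299 of all promoters (3.95%). A shorter XBP1 element, TGACGTGG (UPRE), matched 0 member promoters and 222 of all (0.676%). The letters CCACG are shared by ERSE, ERSE-II and, on the other strand, UPRE, and ATTGG is CCAAT read on the other strand. The CARE matches of the ATF4 output genes are shown in capitals, at chr6:7693204-7693252 (-) for Asns, chr2:119351028-119351076 (-) for Chac1 and chr2:152344019-152344067 (+) for Trib3. A match is a description of these letters and was not tested for binding.
Asns: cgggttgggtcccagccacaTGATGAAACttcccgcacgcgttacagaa
Chac1: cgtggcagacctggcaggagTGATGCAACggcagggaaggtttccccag
Trib3: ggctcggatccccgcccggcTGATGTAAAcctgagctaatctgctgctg

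Transcripts of 6 of 9 genes of BiP, GRP94 and their helpers rose in the SVFs on day 1. So did those of 4 of 5 disulfide enzymes and both lectin chaperones. BiP itself, the UPR sensors and the transcription factors were not called by their brightest probe sets. When probe sets were tested singly, dimmer ones of Hspa5 (0.38) and Atf6 (0.98 and 0.61) were called higher on day 1. Against day 0, day 1 had 15 of the 32 members called higher and 0 called lower (limma, adjusted p under 0.05 over all genes). At an unadjusted p under 0.05 these were 16 and 2. Over all genes, 10.7% were called higher and 17.9% lower. The members' median log2 change was 0.33, beside -0.13 for all genes tested, and 26 of 32 members had a positive change. On day 3 against day 0, the calls were 7 higher and 5 lower, where 13.6% and 12.5% of all genes were called, and the median was 0.20 beside -0.03. On day 3 against day 1, 0 members were called higher and 8 lower, where 9.66% and 4.54% of all genes were called, and the median was -0.19 beside 0.09. At an unadjusted p under 0.05, 1 member was higher and 14 were lower on day 3 than on day 1. The 2 days did not overlap for 17 members on day 1 against day 0, all of them higher, beside 40.0% of all genes. They did not overlap for 23 members on day 3 against day 0 (47.2% of all genes) and for 17 on day 3 against day 1 (35.0%). The comparisons share arrays and are not independent of each other.

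**Figure D1:**
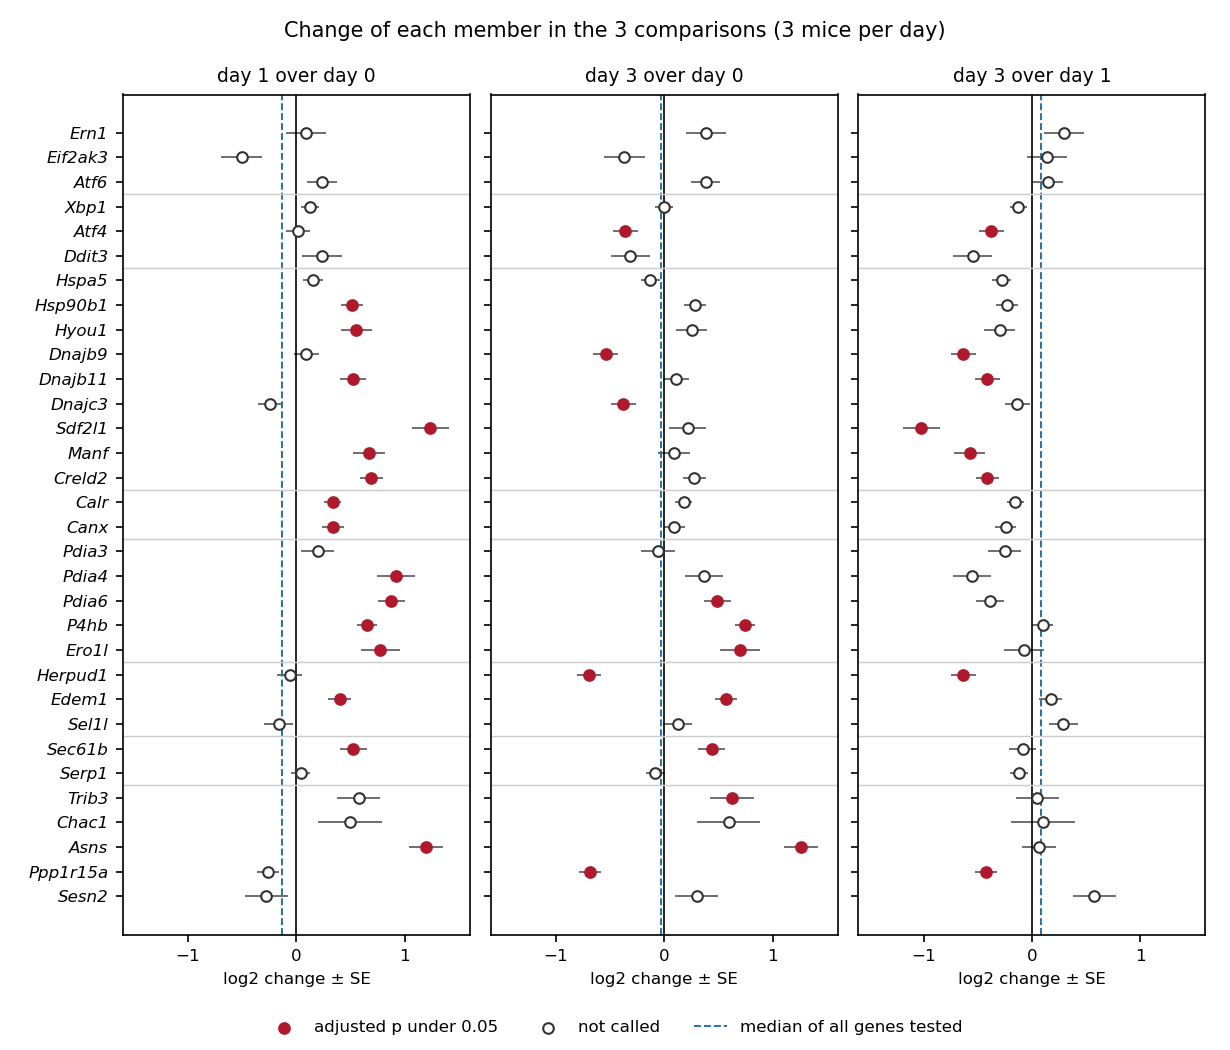
Log2 change of each of the 32 members (rows, grouped by role) in the 3 comparisons, with limma's standard error (3 mice per day). Filled points passed an adjusted p under 0.05, open points did not, and the dashed line is the median of all 11796 genes tested. On day 1 over day 0 the filled points, 15 in all, lie to the right of zero, and on day 3 over day 1 all 8 lie to the left.

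The size of the shared shift on day 1 depended on 1 array and on the scaling. Array by array, the members' median log2 signal relative to the day 0 mean was -0.04, 0.05 and 0.02 on the 3 day 0 arrays, 0.47, 0.30 and 0.27 on the day 1 arrays, and 0.18, 0.23 and 0.13 on the day 3 arrays. Without day 1 replicate 1, the highest of these, the day 1 median was 0.20 and 12 members were called higher. The median of all genes moved to -0.04 on day 1 after quantile normalization and to 0.02 after median centring. Of the genes called on day 1, 62.5% were lower, against 51.7% after quantile normalization and 38.2% after centring. On day 3 against day 1 the lower genes were 32%, 39.4% and 51.9% of those called. The members' day 1 median remained above that of all genes under both, at 0.29 and 0.49.

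The cell mixture of the SVFs moved with the same days, and in such bulk RNA fewer cells of a type and less RNA per cell cannot be told apart. Progenitor and fibroblast markers of the SVF such as Pdgfra and Dcn were present on all arrays (8 of 8 measured), and 2 of these fell on day 1, while 1 rose and 4 fell on day 3. Of 4 adipocyte markers, Lep and Retn were absent on all arrays, whereas Adipoq and Cidec were present on all arrays of days 0 and 1. Adipoq and Cidec were not called on day 1 and fell on day 3 by 0.81 and 1.53, and the adipocyte markers summed to 839 to 1179 on day 0, 585 to 738 on day 1 and 429 to 656 on day 3. Of 6 neutrophil markers, 4 rose and 0 fell on day 1, and 4 rose and 1 fell on day 3. The mean log2 signal of these 6 relative to day 0 lay between 3.05 and 3.61 on day 1 and between 1.67 and 2.45 on day 3. Their summed signal was 6112 to 8870 on day 0, when Cxcr2 was absent on every array, 45190 to 77750 on day 1 and 11230 to 23070 on day 3. Monocyte and macrophage markers rose in 5 of 7 cases on each day and fell in 1 on day 1, with summed signals of 44650 to 52580 on day 0, 58990 to 70690 on day 1 and 66210 to 78430 on day 3. Fibroblast markers summed to 138800 to 145700 on day 0, 108100 to 131200 on day 1 and 112400 to 117800 on day 3. T cell markers fell in 4 of 6 cases on each day, with summed signals of 18680 to 22400 on day 0, 4510 to 14170 on day 1 and 6549 to 10420 on day 3. B cell markers fell in 2 of 5 cases on day 1 and 3 of 5 on day 3, endothelial markers in 5 of 7 and 3 of 7, and mast cell markers in 0 of 5 and 4 of 5. Of 5 pericyte and smooth muscle markers, 1 rose and 3 fell on day 1 and 1 rose and 2 fell on day 3. Markers of plasma cells, which are rich in ER, summed to 9153 to 15670 on day 0, 5520 to 9783 on day 1 and 5516 to 8227 on day 3, and their defining marker Tnfrsf17 was absent on all arrays. Single plasma cell markers moved both ways: of 6 tested, 1 rose and 2 fell on day 1, and 2 rose and 4 fell on day 3. The part of these shifts in the changes below was not tested.

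**Figure D2:**
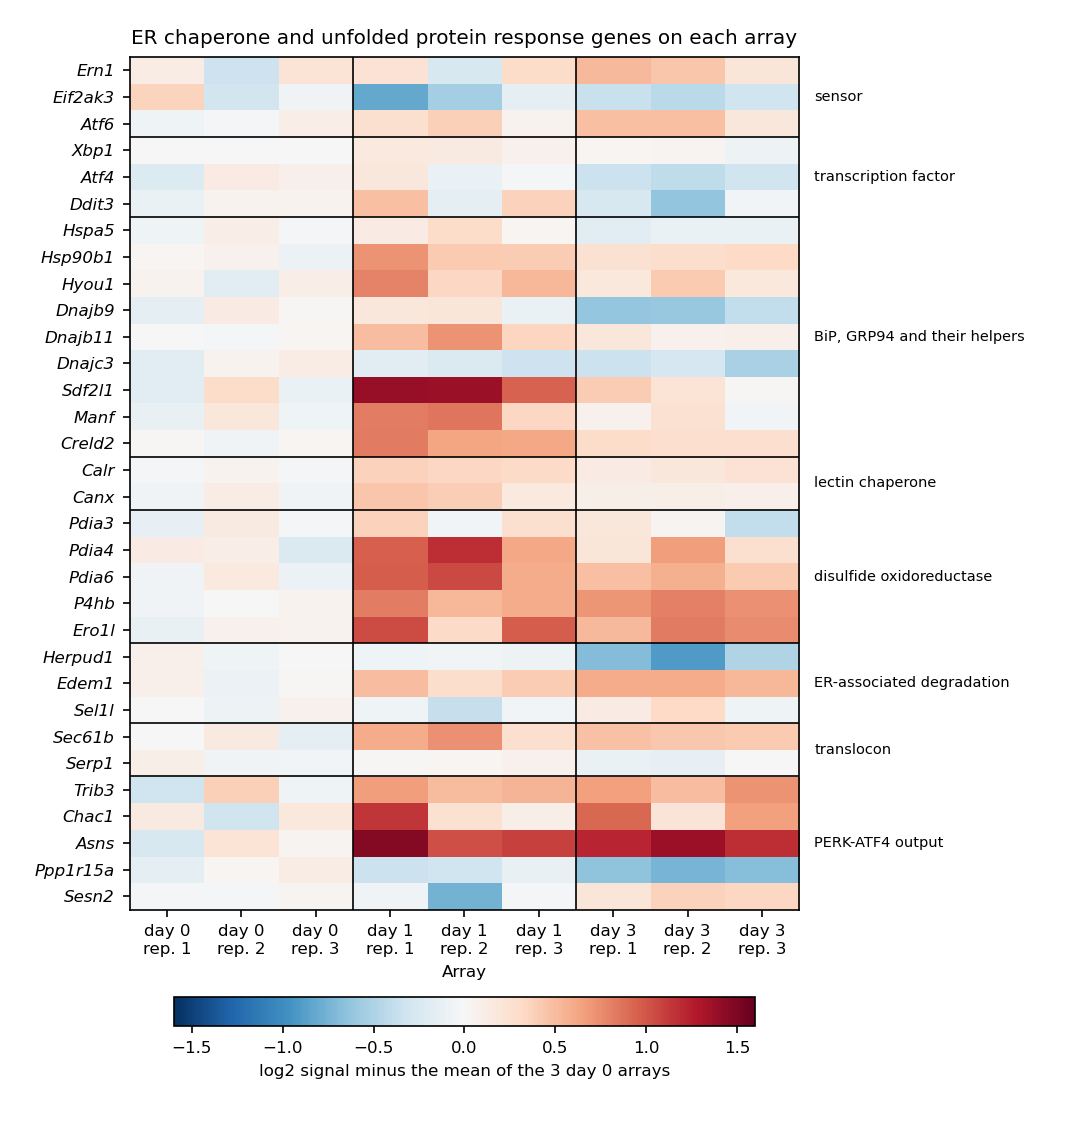
Log2 signal of each member (rows, by role) on each of the 9 arrays (columns) relative to the mean of the 3 day 0 arrays, in red where higher and in blue where lower. Sdf2l1, Manf, Creld2, Pdia4, Pdia6, P4hb and Ero1l are red on all 3 day 1 arrays, and Herpud1, Dnajb9 and Ppp1r15a are blue on all 3 day 3 arrays.

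BiP, its cofactors and GRP94 form the largest group among the members, and 6 of its 9 genes rose on day 1, none of which was called on day 3. Sdf2l1, an ER protein that binds the J-domain cofactors of BiP, rose most. Its signals were 1127, 1562 and 1188 on day 0, 3350, 3327 and 2450 on day 1, and 1697, 1482 and 1301 on day 3. All day 1 arrays stood above every array of the other days, and day 3 overlapped with day 0. The change was 1.24 ± 0.17 (SE) on day 1 (adjusted p = 0.000411) and 0.22 ± 0.17 on day 3 (adjusted p = 0.374).

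Manf, a small ER protein that binds BiP and is also secreted, and Creld2, an ER protein with EGF-like repeats, had the same shape. The Manf signals were 5698, 7022 and 5920 on day 0, 10880, 11180 and 7784 on day 1, and 6488, 7329 and 6023 on day 3. Those of Creld2 were 1085, 1034 and 1095 on day 0, 1900, 1656 and 1638 on day 1, and 1313, 1292 and 1285 on day 3. For both genes the day 1 arrays stood apart from the other 6. Day 3 overlapped with day 0 for Manf, whereas the 3 day 3 arrays of Creld2 stayed above all day 0 arrays. On day 1 Manf rose by 0.67 ± 0.15 (adjusted p = 0.00727) and Creld2 by 0.69 ± 0.11 (adjusted p = 0.000958), while on day 3 the changes were 0.09 ± 0.15 and 0.28 ± 0.11 (adjusted p = 0.686 and 0.0794).

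The other called genes of the group on day 1 were Hsp90b1, which encodes GRP94, with 0.51 ± 0.10, Hyou1, an exchange factor of BiP, with 0.55 ± 0.14, and Dnajb11, a J-domain cofactor, with 0.52 ± 0.12. Their adjusted p-values were 0.00393, 0.0157 and 0.00797, and for each gene all 3 day 1 arrays lay above all day 0 arrays. The Hyou1 call was lost without day 1 replicate 1 (adjusted p = 0.0633), with the mean of its probe sets (0.0772) and without probe sets that can share transcripts (0.0514).

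Hspa5, which encodes BiP itself, was not called in any comparison. Its signals were 21350, 24180 and 21900 on day 0, 24640, 27590 and 22850 on day 1, and 19930, 20910 and 20800 on day 3. Days 1 and 0 overlapped, and the 3 day 3 arrays were below all others. The change was 0.15 ± 0.09 on day 1 (adjusted p = 0.214, 95% confidence interval -0.04 to 0.35) and -0.13 ± 0.09 on day 3 (adjusted p = 0.321). A dimmer probe set of Hspa5 was called higher on day 1 when probe sets were tested singly (0.38, adjusted p = 0.0384), and another was called lower on day 3 than on day 1 (-0.43, adjusted p = 0.0188), so the brightest probe set did not stand for the others.

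Dnajb9 and Dnajc3, J-domain cofactors of BiP that are classical UPR targets, fell on day 3 and were not called on day 1. The Dnajb9 signals were 8912, 10790 and 9942 on day 0, 11200, 11310 and 9135 on day 1, and 6425, 6447 and 7489 on day 3. Every day 3 array was below every earlier array, and days 1 and 0 overlapped. Dnajb9 fell by 0.54 ± 0.12 on day 3 (adjusted p = 0.00594), with a day 1 change of 0.09 ± 0.12. Dnajc3 fell by 0.38 ± 0.12 on day 3 (adjusted p = 0.0324), and its call was lost without day 0 replicates 2 or 3 or any single day 3 array (adjusted p = 0.0521 to 0.118). The Dnajc3 call was also lost after median centring, with the mean of its probe sets and without limma's variance trend. All 5 of its probe sets were lower on day 3, and 1 was called when tested singly.

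**Figure D3:**
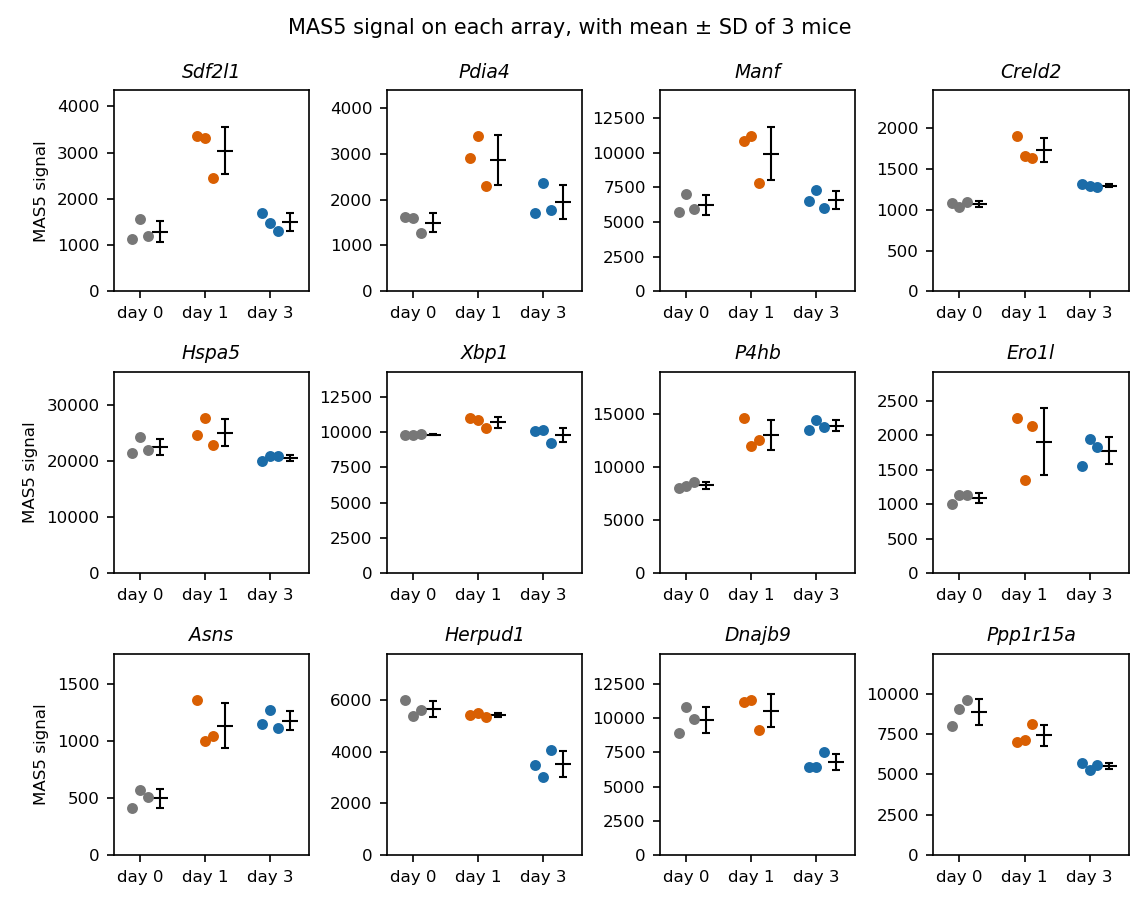
MAS5 signal (linear axis from 0) of 12 members on each array by day, with the mean and SD of 3 mice beside the points. Sdf2l1, Pdia4, Manf and Creld2 are highest on day 1, P4hb, Ero1l and Asns are high on both later days, and Herpud1, Dnajb9 and Ppp1r15a are lowest on day 3.

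Enzymes that form and reshuffle disulfide bonds rose on day 1 in 4 of 5 cases, and 3 of these 4 were still called higher on day 3. Pdia4 and Pdia6 are protein disulfide isomerases. The Pdia4 signals were 1630, 1602 and 1264 on day 0, 2898, 3374 and 2287 on day 1, and 1699, 2360 and 1771 on day 3. For Pdia6 they were 4320, 5019 and 4227 on day 0, 8824, 9396 and 6832 on day 1, and 6310, 6702 and 6015 on day 3. Neither gene had a day 1 or day 3 array as low as any day 0 array. Pdia4 rose by 0.92 ± 0.17 on day 1 (adjusted p = 0.00334) and differed by 0.37 ± 0.17 on day 3 (adjusted p = 0.144). Pdia6 rose by 0.88 ± 0.13 on day 1 (adjusted p = 0.000622) and by 0.49 ± 0.13 on day 3 (adjusted p = 0.0158), a day 3 call that was lost without day 0 replicate 3, day 3 replicate 1 or day 3 replicate 2 (adjusted p = 0.0518 to 0.0673). That call was also lost with the mean of the Pdia6 probe sets (adjusted p = 0.181). A much dimmer probe set of Pdia6 was not called, with changes of 0.03 on day 1 and -0.08 on day 3.

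P4hb, the prototype isomerase and the beta subunit of prolyl 4-hydroxylase, and Ero1l, the oxidase that recharges it, were high on both later days. The signals of P4hb were 8011, 8260 and 8638 on day 0, 14630, 12010 and 12540 on day 1, and 13490, 14490 and 13810 on day 3. Those of Ero1l were 1004, 1137 and 1129 on day 0, 2243, 1344 and 2128 on day 1, and 1556, 1936 and 1833 on day 3. Days 1 and 3 overlapped with each other and not with day 0 for either gene. P4hb rose by 0.65 ± 0.09 on day 1 and 0.75 ± 0.09 on day 3 (adjusted p = 0.000613 and 0.000201). Ero1l rose by 0.77 ± 0.18 and 0.70 ± 0.18 (adjusted p = 0.00997 and 0.0153), and its day 3 call was lost without day 0 replicate 1 or day 3 replicate 2 (adjusted p = 0.0511 and 0.0657). A dimmer probe set of Ero1l gave larger changes, 1.5 on day 1 and 1.2 on day 3. Pdia3, the isomerase that works with calnexin and calreticulin, was not called, with changes of 0.19 ± 0.15 and -0.06 ± 0.15.

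Calr and Canx, the lectin chaperones calreticulin and calnexin, rose by similar small amounts on day 1, 0.33 ± 0.08 and 0.34 ± 0.10 (adjusted p = 0.00996 and 0.0267), and were not called on day 3, although both dimmer probe sets of Calr were, at 0.29 and 0.26 (adjusted p = 0.0385 and 0.0473). All 3 day 1 arrays of both genes were above all day 0 arrays. Canx lost its call without day 0 replicates 1 or 3 or day 1 replicates 1 or 2 (adjusted p = 0.0722 to 0.0967).

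The sensors showed no called change. Ern1 encodes IRE1 alpha, and its signals were 861, 630.0 and 921 on day 0, 927, 662 and 969 on day 1, and 1138, 1075 and 905 on day 3. Eif2ak3, which encodes PERK, had 2896, 1832 and 2159 on day 0, 1281, 1541 and 2028 on day 1, and 1765, 1675 and 1802 on day 3. Atf6 had 672, 691 and 756 on day 0, 842, 921 and 736 on day 1, and 985, 987 and 798 on day 3. Only 2 of these 6 comparisons with day 0 had no overlap, both on day 3: Atf6, whose arrays were all higher, and Eif2ak3, whose arrays were all lower. The day 1 changes were 0.08 ± 0.19 for Ern1, -0.51 ± 0.19 for Eif2ak3 and 0.23 ± 0.14 for Atf6 (adjusted p = 0.752, 0.0627 and 0.207), and those of day 3 were 0.38 ± 0.19, -0.37 ± 0.19 and 0.38 ± 0.14 (adjusted p = 0.152, 0.171 and 0.058). Both dimmer probe sets of Atf6 were called higher on day 1, by 0.98 and 0.61 (adjusted p = 0.0132 and 0.00767), so the call for Atf6 depends on the probe set.

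Among the transcription factors, Xbp1 was nearly level. Its signals were 9771, 9826 and 9876 on day 0, 10990, 10840 and 10270 on day 1, and 10060, 10130 and 9264 on day 3. The day 1 arrays lay just above all others, with a change of 0.12 ± 0.08 (adjusted p = 0.275), and the day 3 change was -0.002 ± 0.08. Atf4, the factor translated when PERK is active, had 10570, 13550 and 13080 on day 0, 13930, 11440 and 12140 on day 1, and 9721, 9279 and 9851 on day 3. All day 3 arrays were below all others, and days 1 and 0 overlapped. Atf4 fell by 0.36 ± 0.11 on day 3 (adjusted p = 0.0361), and this call was lost without day 0 replicates 2 or 3 or any single day 3 array (adjusted p = 0.0706 to 0.125). Median centring and the mean of its probe sets also removed the call, among other alternatives. A dimmer probe set of Atf4 was at -0.18 on day 3 and not called (adjusted p = 0.27). Tested singly, neither probe set was called on day 3 against day 1 (adjusted p = 0.0546 and 0.0944). Ddit3, which encodes the factor CHOP, had 2949, 3299 and 3316 on day 0, 4452, 2868 and 4128 on day 1, and 2672, 2050 and 3086 on day 3. Its days overlapped in every comparison, with changes of 0.24 ± 0.18 and -0.31 ± 0.18 (adjusted p = 0.339 and 0.229).

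Output genes of PERK and ATF4 moved in both directions. Asns, asparagine synthetase, rose on both days. Its signals were 409, 571 and 506 on day 0, 1357, 1002 and 1044 on day 1, and 1146, 1272 and 1111 on day 3. Every later array was above every day 0 array, and days 3 and 1 overlapped. The rise was 1.2 ± 0.16 on day 1 and 1.26 ± 0.16 on day 3 (adjusted p = 0.00034 and 0.000199). Trib3, a pseudokinase induced by ATF4 and CHOP, had dim signals of 86.3, 140.0 and 103 on day 0, 171, 152 and 157 on day 1, and 169.7, 151 and 177 on day 3. Its later arrays were above all day 0 arrays, with 0.57 ± 0.20 on day 1 (adjusted p = 0.0526) and 0.62 ± 0.20 on day 3 (adjusted p = 0.0407). The day 3 call was lost without day 0 replicates 1 or 3 or any single day 3 array (adjusted p = 0.0725 to 0.135), and without day 1 replicate 1 another probe set represented the gene and gave -0.05. Trib3 was detected on 2 of the 3 day 0 arrays and so passed the filter only through the days on which it was higher. When presence on all 9 arrays was required, it was left out, and 6 of the 30 members then tested were called higher on day 3.

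Ppp1r15a, also called GADD34, is the phosphatase subunit that ends PERK signalling, and it fell. Its signals were 8013, 9041 and 9591 on day 0, 6994, 7095 and 8130 on day 1, and 5676, 5292 and 5546 on day 3. The day 3 arrays were below all others, and days 1 and 0 overlapped at their edges. It fell by 0.69 ± 0.10 on day 3 (adjusted p = 0.000625), and the day 1 change was -0.26 ± 0.10 (adjusted p = 0.0739). Chac1, which degrades glutathione, and Sesn2, a stress sensor of amino acid supply, were not called, with 0.49 ± 0.29 and -0.28 ± 0.20 on day 1 and 0.59 ± 0.29 and 0.30 ± 0.20 on day 3.

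Of the ERAD genes, Herpud1 fell on day 3 and Edem1 rose on both days. Herpud1 encodes an ER membrane protein that gathers the degradation complex. It had 6006, 5381 and 5629 on day 0, 5422, 5508 and 5368 on day 1, and 3490, 3032 and 4060 on day 3. The day 3 arrays were far below the other 6, which overlapped. Herpud1 fell by 0.69 ± 0.11 on day 3 (adjusted p = 0.00121), and its change was -0.06 ± 0.11 on day 1. Edem1, a lectin that hands misfolded glycoproteins to degradation, rose by 0.40 ± 0.10 on day 1 and 0.57 ± 0.10 on day 3 (adjusted p = 0.0167 and 0.00237). Its day 1 call was lost without day 1 replicate 1 (adjusted p = 0.0629), and its other probe set had a day 1 change of -0.24. That call was also lost with the mean of its probe sets and with only the 6 arrays compared. Over these 3 losses the adjusted p was 0.0539 to 0.575. Sel1l, the scaffold of the ubiquitin ligase HRD1, was not called, with -0.16 ± 0.13 on day 1 and 0.12 ± 0.13 on day 3. In the translocon, Sec61b, a subunit of the protein channel, rose by 0.52 ± 0.12 on day 1 and 0.44 ± 0.12 on day 3 (adjusted p = 0.0108 and 0.0235). The Sec61b call of day 1 was lost without day 0 replicate 3 (adjusted p = 0.0529), and that of day 3 without day 0 replicates 1 or 3 or any single day 3 array (adjusted p = 0.055 to 0.0941). Serp1, which stabilises proteins entering the ER, was not called, with 0.04 ± 0.09 and -0.08 ± 0.09.

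By their calls, 6 members were higher on both days (Asns, Edem1, Ero1l, P4hb, Pdia6 and Sec61b), 9 on day 1 alone, 1 on day 3 alone, 5 were called lower on day 3 and 11 were called on neither. A call on 1 day alone does not show a difference between the days, which the direct comparison tested. Sdf2l1 (-1.02 ± 0.17, adjusted p = 0.00269), Manf, Creld2 and Dnajb11 were lower on day 3 than on day 1 after their rise, with changes of -0.57, -0.41 and -0.41 for Manf, Creld2 and Dnajb11 (adjusted p = 0.0239, 0.0259 and 0.0365). Herpud1, Dnajb9, Ppp1r15a and Atf4 were lower on day 3 than on both earlier days, with changes against day 1 of -0.63, -0.63, -0.43 and -0.37 (adjusted p = 0.00449, 0.00502, 0.0184 and 0.0466). For Pdia4 and Pdia6 the change was -0.55 ± 0.17 and -0.39 ± 0.13 and not called (adjusted p = 0.0561 and 0.0658). Of these 8 calls, those of Sdf2l1, Herpud1 and Dnajb9 were kept without any single array. That of Ppp1r15a was lost without 3 of the 9 arrays in turn, that of Manf without 4, that of Creld2 without 5 and those of Dnajb11 and Atf4 without 6 each (adjusted p = 0.0508 to 0.149). The count of 8 was 4 without day 1 replicate 1, 5 without day 1 replicate 2, 12 without day 1 replicate 3, 3 without day 3 replicate 1, 5 without day 3 replicate 2 and 3 without day 3 replicate 3. On day 3 against day 0, the 7 higher calls were 4 without day 0 replicate 1, day 0 replicate 3 or day 3 replicate 1, and 3 without day 3 replicate 2. The 5 lower calls of that comparison were 3 without day 0 replicates 2 or 3 or any single day 3 array.

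Members whose promoter window held an ERSE or ERSE-II were not all alike. Of these 9 genes, 6 were called higher on day 1 and 0 lower, with a median log2 change of 0.34, beside 7 higher of the 20 matched members without the element and a median of 0.22. On day 3, 1 of the 9 was higher and 2, Dnajc3 and Herpud1, were lower, beside 6 higher, Trib3 among them, and 3 lower of the other 20. The day 3 medians had the reverse order, 0.11 for the 9 and 0.26 for the other 20. Over all genes, 10.7% were called higher and 17.9% lower on day 1, and 13.6% higher and 12.5% lower on day 3. Hspa5, Dnajc3 and Herpud1 carried the element and were not called on day 1, and Sdf2l1, Pdia4 and P4hb rose without a match in their window. Asns and Trib3, with CARE, had changes of 1.26 and 0.62 on day 3, while Herpud1, with CARE and ERSE-II, was at -0.69. Trib3 passed the presence filter only through the days on which it was higher, and another of its probe sets gave -0.05. Chac1, also with CARE, was at 0.59 on day 3 and was not called (adjusted p = 0.159).

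Several probe sets passed the filter for 19 members and 1 for the other 13. Tested singly, the probe sets of a member all had the same sign in 14 of 19 members on day 1, 15 of 19 on day 3 and 17 of 19 between days 3 and 1, and no member had probe sets called in opposite directions. Probe sets of 30 members were present on all 9 arrays, and the exceptions were Trib3, present on 2, 3 and 3 arrays of days 0, 1 and 3, and Sesn2, present on 3, 2 and 1.

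Genes around the members in the secretory pathway were taken from 6 lists, whose counts are to be read beside the shares of all genes called. On day 3 against day 1, where 9.66% of all genes were called higher, 10 of 33 further ER folding proteins (30.3%) were higher and 0 lower. Of 27 ER to Golgi transport genes, 7 (25.9%) were higher and 1 lower, and of 29 translocon and glycosylation genes 3 (10.3%, near the share of all genes) were higher and 1 lower. After median centring these higher counts were 5, 3 and 0, with 2 of the translocon and glycosylation genes lower, and after quantile normalization 8, 8 and 6. Against day 0, 5 of the 33 folding proteins (15.2%) were higher and 2 (6.06%) lower on day 1, beside 10.7% and 17.9% of all genes. On day 3, 10 (30.3%) were higher and 2 (6.06%) lower, beside 13.6% and 12.5%. The list's medians were 0.07 and 0.19, beside -0.13 and -0.03 for all genes. The day 1 counts were 3 higher and 3 lower after quantile normalization, and 7 and 0 after median centring. Fkbp11, a prolyl isomerase of secretory cells, rose by 0.85 ± 0.22 on day 1 and 1.61 ± 0.22 on day 3 (adjusted p = 0.0165 and 0.000396). Pdia5 and the peroxiredoxin Prdx4 rose on day 3 by 1.14 ± 0.19 and 0.70 ± 0.11, and Fkbp2 on day 1 by 0.54 ± 0.18. Ero1b, the paralog of Ero1l, fell by 0.67 ± 0.23 on day 1 and by 0.82 ± 0.23 on day 3 (adjusted p = 0.0488 and 0.0228), opposite to Ero1l. Of 21 further ERAD genes, 2 were higher (9.52%, beside 10.7% of all genes) and 0 lower on day 1, Derl2 (0.59 ± 0.19) and Vcp (0.30 ± 0.09), and 1 was higher (4.76%, beside 13.6%) and 3 lower on day 3 (14.3%, beside 12.5%). After quantile normalization these day 1 counts were 0 and 2. On day 3 Vcp rose by 0.29 ± 0.09, and Yod1, Ngly1 and Ubxn4 fell by 0.60 ± 0.18, 0.43 ± 0.10 and 0.43 ± 0.10.

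Genes of protein entry into the ER and of exit from it were called higher and never lower on both days. Of 29 translocon, signal peptide and oligosaccharide transfer genes, 5 (17.2%) were higher on day 1 and 11 (37.9%) on day 3, beside 10.7% and 13.6% of all genes. Ssr2 and Ssr4, subunits of the translocon-associated complex, and Rpn1, of the oligosaccharyl transferase, rose on day 1 by 0.57 ± 0.14, 0.53 ± 0.09 and 0.51 ± 0.12. On day 3 Tram2, Stt3a and Ssr2 rose by 0.95 ± 0.21, 0.75 ± 0.13 and 0.63 ± 0.14. Of 27 ER to Golgi transport genes, 7 (25.9%) were higher on day 1 and 11 (40.7%) on day 3, with medians of 0.17 and 0.38. Mcfd2, Copb2 and Surf4 rose on day 1 by 0.60 ± 0.14, 0.54 ± 0.16 and 0.45 ± 0.11. The KDEL receptors Kdelr3 and Kdelr2, which return chaperones such as BiP to the ER, rose on day 3 by 1.29 ± 0.15 and 0.74 ± 0.11 (adjusted p = 0.000107 and 0.000482), and Surf4 by 0.70 ± 0.11. After median centring 11 and 12 genes of these lists were called higher on day 1, and after quantile normalization 5 and 6 were higher and 2 of each list lower.

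**Figure D4:**
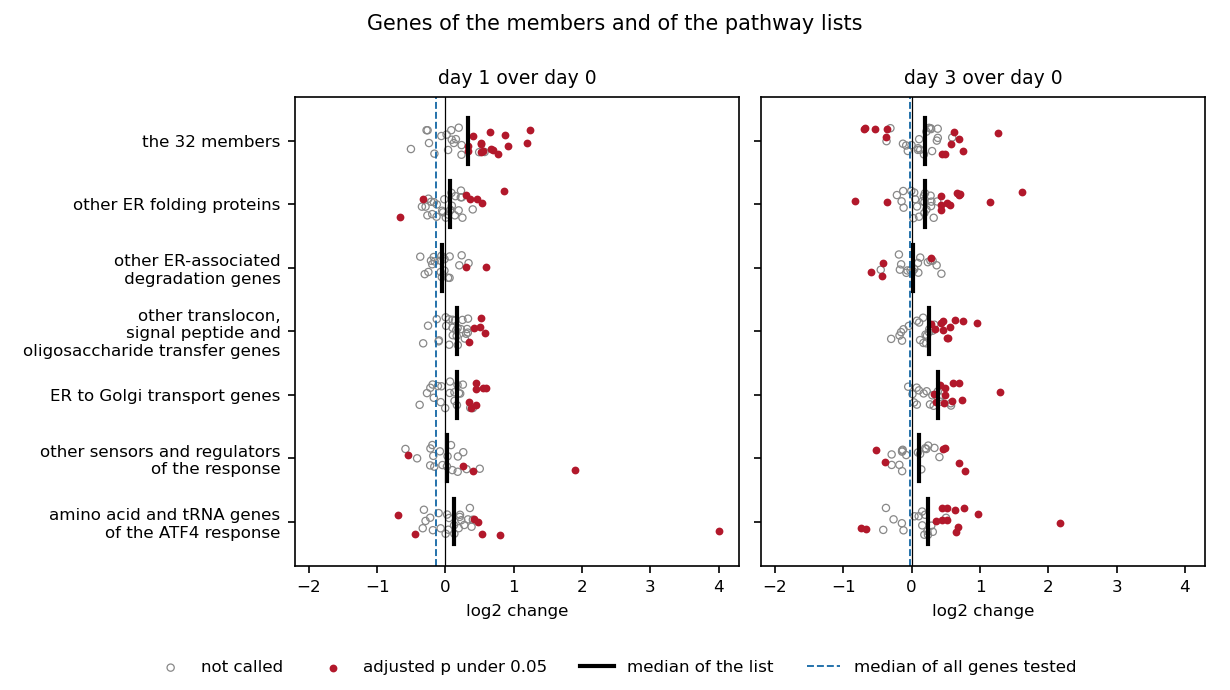
Log2 change of each tested gene in the 32 members and in 6 lists of neighbouring pathways on day 1 (left) and day 3 (right) over day 0, filled where the adjusted p was under 0.05. Thick ticks are list medians, and the dashed line is the median of all 11796 genes. The members have the highest median on day 1, 0.33, and ER to Golgi transport genes the highest on day 3, 0.38.

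Among 22 other sensors and regulators, 3 (13.6%) were higher and 1 lower on day 1 and 4 (18.2%) higher and 2 lower on day 3, beside 10.7% and 13.6% of all genes called higher. Eif2ak2, the interferon-induced kinase PKR, which phosphorylates the same factor as PERK, rose by 1.90 ± 0.15 on day 1 and 0.78 ± 0.15 on day 3 (adjusted p = 7.95e-06 and 0.00351). Creb3, an ER-anchored factor related to ATF6, rose by 0.41 ± 0.12 on day 1. Mbtps1, the Golgi protease that cuts ATF6, fell by 0.55 ± 0.13 on day 1. Bak1, a pro-apoptotic BCL2 family member, rose by 0.69 ± 0.15 on day 3, when Atf3, an ATF4 target, fell by 0.52 ± 0.12. Of 29 amino acid and tRNA genes of the ATF4 response, 5 (17.2%) were higher and 2 lower on day 1 and 11 (37.9%) higher and 2 lower on day 3. Slc7a11, the cystine transporter, had the largest change of the list, 4.0 ± 0.36 on day 1 and 2.18 ± 0.36 on day 3 (adjusted p = 1.96e-05 and 0.00129). Aars, alanyl-tRNA synthetase, rose by 0.79 ± 0.24 on day 1 and 0.76 ± 0.24 on day 3, and Psat1, a serine synthesis enzyme, by 0.98 ± 0.17 on day 3. Phgdh, the enzyme just before Psat1 in that pathway, fell by 0.69 ± 0.18 on day 1, and Vldlr fell by 0.75 ± 0.14 on day 3.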

How the data were processed

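RNA of SVFs was measured in 9 mice, 3 per day, each on 1 Affymetrix Mouse430_2 array, and this number limits the precision. The deposited files give, per probe set, a signal, a detection call and a detection p-value, which the authors made with MAS5 (version not given in the sources used here). The signals are intensity values on a linear scale, which the authors scaled so that each array's mean was 500 with 2% trimmed on either side. Per array, 24106 to 26299 of the 45101 probe sets were detected, and actin 3'/5' ratios were 1.15 to 1.32.

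Log2 signals, with no offset, were fitted with limma 3.58.1 in R 4.3.3 with day as the factor (6 residual degrees of freedom, variance trend), two-sided, adjusted by Benjamini-Hochberg over 11796 genes. Changes are on the log2 scale with limma's standard error. The methods' repeated-measurements ANOVA was run as an alternative, since each array was another mouse, and so was a one-way form. Both took a p under 0.05 without adjustment and the methods' 2-fold limit. The fit was tested on simulated data in which far fewer genes changed than were called here. It called 18.9% of log2 changes of 0.5, 70.9% of those of 1 and 96.3% of those of 2. Of its calls, 5.28% were false. A missing call is therefore not evidence of no change, and the rates in the measured data were not tested.

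The members, the 6 pathway and 10 cell type lists and the tests were chosen with earlier results of these data known. Signals on every array are given for the 12 members with the largest change, the sensors and transcription factors, and Hspa5. In each pathway list up to 3 called genes per day and 1 that moved the other way are named. Promoters were searched with Python 3 from the RefSeq table (GRCm38.p6). Of the 32 members, probe sets with 2 or more symbols were not used. Alternatives numbered 25.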

Additional observations from a re-analysis of the deposited data

Results flagged for a closer look

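For 8 members the change on day 3 differed from the change on day 1 by the direct comparison of the days in limma, all of them lower on day 3 (3 mice per day, adjusted p under 0.05 over all genes, no overlap between the days). Sdf2l1, the cofactor of BiP with the largest day 1 rise, differed by -1.02 on the log2 scale. Manf differed by -0.575, Creld2 by -0.413 and Dnajb11 by -0.412, after rises on day 1. The differences of the UPR targets Herpud1 and Dnajb9 were -0.633 each, that of Ppp1r15a was -0.425 and that of Atf4 was -0.374, and these 4 genes were not called on day 1. The calls of Sdf2l1, Herpud1 and Dnajb9 were kept without any single array, whereas that of Ppp1r15a was lost without 3 of the 9 arrays in turn, that of Manf without 4, that of Creld2 without 5 and those of Dnajb11 and Atf4 without 6 each. Over all genes, 4.54% were called lower in this comparison.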

How the results depend on the processing

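Leaving out the threshold of 2-fold, the stricter adjusted p and the methods' ANOVA, the calls of Asns, P4hb, Sdf2l1, Pdia4, Pdia6, Manf, Creld2, Calr, Hsp90b1, Dnajb11 and Ero1l on day 1, and of Asns, P4hb, Edem1, Herpud1, Dnajb9 and Ppp1r15a on day 3, held under every alternative that gave them a value, and so did those of Sdf2l1, Herpud1 and Dnajb9 on day 3 against day 1. Without probe sets that can share transcripts, P4hb, Calr, Hsp90b1, Hspa5, Serp1 and Trib3 had no value, and 11 members were higher on day 1. With presence required on all 9 arrays, Trib3 and Sesn2 had none. The call of Atf4 on day 3 against day 1 was lost in 12 of 21 such alternatives, that of Dnajb11 in 8, and in that comparison those of Manf and Creld2 in 5 each and that of Ppp1r15a in 4. Over the 2376 cases with a value, single members kept their direction and side of the threshold in 2087, changed sign without being called in 48, lost a call in 193, gained one in 46 and turned in 2. Both turns were Trib3 on day 3, at -0.049 without the presence filter and without day 1 replicate 1, where another probe set represented it (range without 1 array -0.049 to 0.816). The counts of the pathway lists stayed within 1.5 times in 564 cases and moved in 336.

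The 15 higher calls of day 1 were 2 by the one-way ANOVA, 2 by its repeated form and 2 with the 2-fold limit. The 0 lower calls were 2 after quantile normalization and 2 with array weights, and the median of 0.334 was 0.485 after centring. On day 3 the 7 higher calls were 1 and 1 by the ANOVAs, 3 at an adjusted p under 0.01 and 1 with the 2-fold limit. The 5 lower calls were 3 after centring, 3 when all probe sets of a gene were averaged, 3 without the variance trend, 0 and 0 by the ANOVAs, 3 at an adjusted p under 0.01 and 0 with the 2-fold limit. The day 3 median of 0.197 was 0.117 without the presence filter. On day 3 against day 1, the 0 higher calls were 1 with array weights. The 8 lower calls were 5 without the variance trend, 1 and 1 by the ANOVAs, 3 at an adjusted p under 0.01 and 1 with the 2-fold limit, and the median of -0.191 was -0.115 after quantile normalization and -0.298 after centring. Both ANOVAs took an unadjusted p under 0.05 over the 3 days together with the 2-fold limit. That limit, also within the ANOVAs, and the stricter p remove calls by construction. The cause of the other moves was not tested.

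Leaving out each array in turn gave 12 to 16 higher and 0 to 2 lower calls on day 1 (median 0.197 to 0.377), 3 to 9 higher and 3 to 5 lower on day 3 (median 0.146 to 0.245), and 0 to 1 higher and 3 to 12 lower on day 3 against day 1 (median -0.22 to -0.149). With the replicate number as a block, 15 members were higher and 0 lower on day 1, 6 higher and 4 lower on day 3, and 0 higher and 11 lower on day 3 against day 1. Deviations of same-numbered arrays of different days correlated between -0.147 and 0.331, and those of differently numbered arrays between -0.402 and 0.308. The labels give only the number, and whether same-numbered arrays were handled together cannot be told from these ranges.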
